A study of Mus musculus with 6 samples.

Results

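Ribosomes are built from ribosomal RNA and ribosomal proteins, and a cell has 2 kinds of them. Cytosolic ribosomes, of a large (60S) and a small (40S) subunit, translate nuclear messenger RNA, and their proteins are encoded by genes named Rpl, Rps and Rplp. Mitochondrial ribosomes translate the few messages of the mitochondrial genome, and their proteins, encoded in the nucleus under the names Mrpl and Mrps, are made in the cytosol and imported. Cytosolic ribosomal protein mRNAs typically start with a run of pyrimidines (the TOP, or terminal oligopyrimidine, motif), through which mTOR signalling adjusts their translation to growth. Developing T cells grow and divide as they pass from the double-negative stages to the double-positive stage, and cytosolic ribosomal protein Rpl22 is known to be needed for alpha-beta T cell development.

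The members are 161 of the 22298 listed genes, chosen by symbol alone: 83 cytosolic and 78 mitochondrial ribosomal protein genes. Pseudogenes marked "-ps" and the S6 kinases, which share the letters Rps6k, were left out. The cells were sorted from thymi of untreated C57BL/6 mice and are labelled as double-negative thymocytes, while the protocol names the DN2 stage. Toxf/f mice carry a loxP-flanked Tox, which encodes an HMG-box nuclear protein needed by developing CD4 T cells, and Toxf/fPdcd1Cre mice carry the same Tox alleles together with a Cre recombinase named for Pdcd1; how that Cre was made is not given in the sources used here. Each genotype had 3 samples, replicates 1 and 2 from 3-week-old and replicate 3 from 4-week-old mice, and nothing in the labels says which came from separate mice, so p-values here speak of the spread among libraries, which may be technical. Toxf/f replicates 1 and 2 had the same values for every gene and counted as 1 library, so 2 Toxf/f libraries were compared with 3 Toxf/fPdcd1Cre libraries.

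Depth was even, at 14245492 to 16199195 estimated counts per library. Tox was at 121 and 105 CPM (counts scaled to the effective library size) in Toxf/f and at 19.2, 16.4 and 13.8 CPM in Toxf/fPdcd1Cre libraries. Cd4 was at 718 to 982 CPM and Cd8a at 1395 to 2017 CPM over the 5 libraries, which goes against pure double-negative cells, so that name is used only as the labels give it. Summed over lists of 7 to 9 marker genes, double-positive markers lay at 9521 to 10544 CPM in Toxf/f and 9563 to 12502 CPM in Toxf/fPdcd1Cre, and mature single-positive T cell markers at 684 to 753 and 497 to 525 CPM. Dendritic and myeloid markers lay at 2747 to 3104 and 1456 to 1806 CPM, B cell markers at 230 to 252 and 58.3 to 79.0 CPM, and natural killer and gamma-delta T cell markers at 203 to 237 and 354 to 587 CPM. Thymic epithelial markers lay at 2156 to 2468 and 2437 to 2669 CPM, and 6 erythroid markers at 1035 to 1432 and 473 to 1056 CPM, both with overlap. Summed messages of 9 mitochondrially encoded genes ran from 21596 CPM in Toxf/fPdcd1Cre replicate 2 to 30243 CPM in Toxf/fPdcd1Cre replicate 1. Double-negative markers lay at 457 to 636 and 529 to 663 CPM, with overlap; of these 8 genes Cd44 and Il7r were called lower in Toxf/fPdcd1Cre, 0 were called higher and 4 had fold changes above 0. No marker on the lists was at 0 in every library. In sorted bulk RNA, fewer cells of a type and less RNA per cell cannot be told apart.

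Sequences at the start sites show what the members' promoters have in common. RefSeq promoters on GRCm38.p6 (300 bases, 250 before the annotated start and 50 from it on) were matched by symbol for 63 of the 83 cytosolic and 69 of the 78 mitochondrial genes, with 75 promoters in each set. A C followed by at least 4 further C or T bases, beginning within 5 bases of the start, was found in 41.3% of cytosolic, 22.7% of mitochondrial and 18.3% of all 32851 promoters. The match depends on the annotated start, so its absence does not show that a message lacks such a run. The 4 stretches shown run from 15 bases before the annotated start to 15 bases into the transcript, and capitals mark that pyrimidine run. In Rpl13a the run is 14 bases long and goes on past the end of the stretch. These stretches were taken in order of level per length from the cytosolic members that had such a run.
Rpl13a, chr7:45128731-45128760, minus strand: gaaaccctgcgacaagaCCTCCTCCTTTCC
Rps24, chr14:24490663-24490692, plus strand: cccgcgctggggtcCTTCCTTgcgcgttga
Rps26, chr10:128626492-128626521, minus strand: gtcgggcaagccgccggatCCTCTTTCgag
Rps6, chr4:86857353-86857382, minus strand: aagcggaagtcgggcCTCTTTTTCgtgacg

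Rpl13a is a large subunit protein that also takes part in translational silencing of inflammatory messages, and Rps6 is the small subunit protein phosphorylated by S6 kinase. Mitochondrial members had more promoters with the motif of NRF1, a regulator of nuclear genes for mitochondria, at 17.3% against 8% of cytosolic and 4.6% of all promoters. The motif CCGGAAG of ETS factors, whose member GABP acts on many such genes, was in 34.7% of mitochondrial, 36% of cytosolic and 8.86% of all promoters. AAGATGGCG of YY1 was in 10.7%, 8% and 1.4%, and GGGCGG of SP1 in 52%, 60% and 35.7%. The E-box CACGTG was in 9.33%, 10.7% and 7.15%, and TATAAA in 6.67%, 9.33% and 13.6%. Both strands were searched in all 300 bases, and none of these motifs contains another. The 3 mitochondrial stretches shown are the 100 bases before the start, with NRF1 or ETS matches in capitals.
Mrpl30, chr1:37890377-37890476, plus strand, NRF1: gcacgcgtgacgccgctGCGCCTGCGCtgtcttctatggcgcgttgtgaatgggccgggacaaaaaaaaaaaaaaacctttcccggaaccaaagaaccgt
Mrpl9, chr3:94443236-94443335, plus strand, NRF1: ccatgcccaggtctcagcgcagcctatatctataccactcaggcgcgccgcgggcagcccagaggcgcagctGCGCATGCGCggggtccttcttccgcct
Mrpl58, chr11:115403652-115403751, plus strand, ETS: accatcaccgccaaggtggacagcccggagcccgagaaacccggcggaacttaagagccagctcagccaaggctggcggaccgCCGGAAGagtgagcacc

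A match is a description of letters in a window and not evidence of a bound factor. Cytosolic genes with a pyrimidine run matched at the annotated start had a median log2 fold change between genotypes of 0.11 (29 genes). Those with no such match had 0.13 (31 genes). Mitochondrial genes with an NRF1 match stood at 0.09 (13 genes) and those without at 0.08 (56 genes). For these features, genes with and without a match lay within a few hundredths of each other on the log2 scale.

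Cytosolic members were abundant messages in these cells, and mitochondrial members were far lower. Of all counts, cytosolic genes held 6.71% and 6.19% in Toxf/f and 7.10%, 7.05% and 6.16% in Toxf/fPdcd1Cre. Mitochondrial genes held 0.324% and 0.278% in Toxf/f and 0.325%, 0.301% and 0.297% in Toxf/fPdcd1Cre. The values of the genotypes overlap in both sets. On the FPKM scale, which is per length, the median tested cytosolic gene averaged 1054 and the median mitochondrial gene 28.4, a ratio of 37.1.

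Within each set the levels spread several-fold, although ribosomes hold nearly every one of these proteins in equal number. The 90th percentile of mean FPKM was 4.76 times the 10th among cytosolic genes and 5.85 times among mitochondrial genes. Among the highest cytosolic members were Rpl13a at 2679 FPKM, Rpl23a, a protein at the exit of the peptide tunnel, at 2674, Rps3a1 at 2258 and Rps14 at 2105 FPKM. The highest mitochondrial members were Mrpl30 at 109, Mrpl24 at 104, Mrpl20 at 91.2, Mrpl42 at 88.9 and Mrpl18 at 75.5 FPKM. Of the tested cytosolic genes, 2 lay below the highest mitochondrial gene, Rpl7l1 at 67.4 and Rpl22l1 at 37.9 FPKM, both second copies of other ribosomal protein genes. The order depends on the lengths the authors used. Counts and FPKM of Rps20 together imply a length of 3706 bases, the longest of the set, and it stood at 140 FPKM with a mean of 521 CPM, while Rpl14 stood at 468 FPKM with a mean of 472 CPM.

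**Figure D1:**
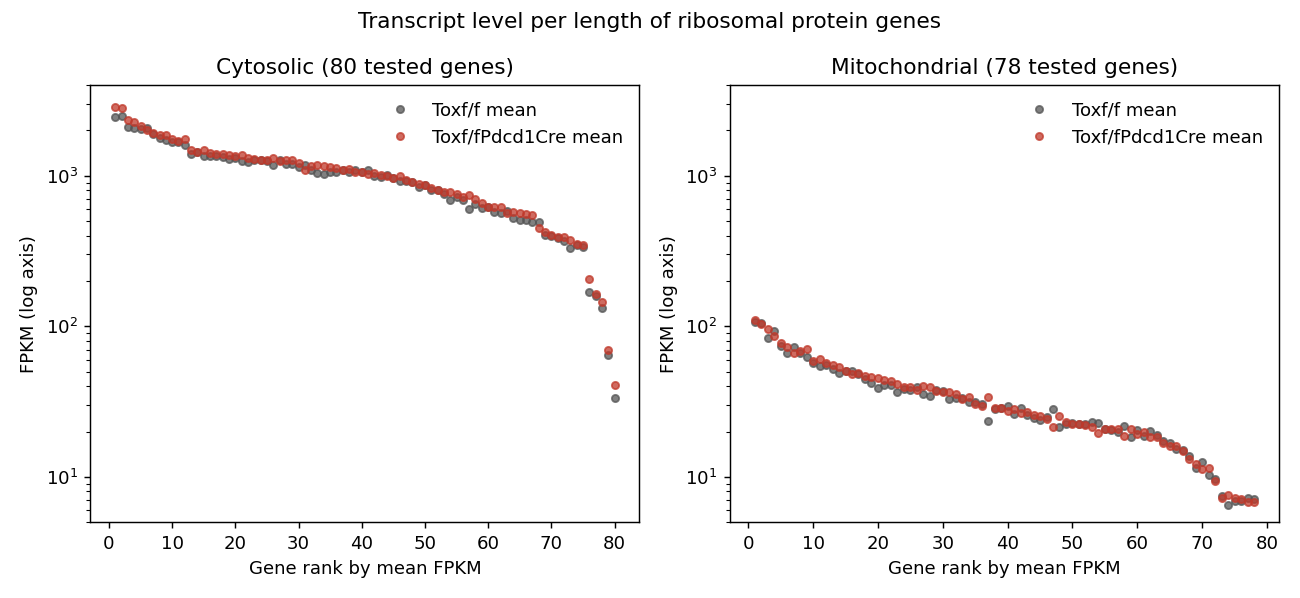
Mean FPKM (log axis) of each tested gene by genotype, with genes ranked by their mean over 5 libraries, for cytosolic (left) and mitochondrial (right) ribosomal protein genes. Genotype means lie almost on one another in both sets, and the cytosolic curve runs from 2679 to 37.9 FPKM against 109 to 6.94 FPKM for the mitochondrial one.

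The comparison of the genotypes asks whether the messages for ribosomal proteins differ when Tox is targeted. None of the members passed the test. Of 80 tested cytosolic and 78 tested mitochondrial genes, 0 were higher and 0 lower when edgeR quasi-likelihood p-values were adjusted by Benjamini-Hochberg and held to 0.05, against 0.135% of all 14121 tested genes called higher and 1.51% called lower. DESeq2 and limma-voom also called 0 members. At an unadjusted p of 0.05 the count was 1 cytosolic gene, Rpl39, and 0 mitochondrial genes, against 1460 of all 14121 tested genes. The smallest adjusted p was 0.457 among cytosolic genes (Rpl39) and 0.546 among mitochondrial genes (Mrpl32).

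The fold changes were small and leaned upward. Log2 fold changes (Toxf/fPdcd1Cre minus Toxf/f) were above 0 for 76 of 80 cytosolic genes, with a median of 0.13 and a range of -0.08 to 0.35. They were above 0 for 63 of 78 mitochondrial genes, with a median of 0.08 and a range of -0.33 to 0.31. Over all tested genes 7733 of 14121 were above 0, with a median of 0.03, and among those at 10 CPM or more 5966 of 9347, with a median of 0.06. The mitochondrial median was thus 0.05 below the cytosolic one, a difference smaller than the SD of 0.09 between libraries of a genotype in the same quantity. The SD between libraries of a genotype in the set's median level was 0.11 on the log2 scale for each set, close to the size of the shift itself.

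The precision bounds what could have been missed. Standard errors were 0.12 to 0.21 in both sets. The 95% interval, taken gene by gene, lay within 1.5-fold in either direction for 77 of 80 cytosolic and 71 of 78 mitochondrial genes. The highest upper bound was 1.65-fold (Rpl22l1) and the lowest lower bound was 0.609-fold (Mrps6). Differences inside these intervals could not be told from 0 with 5 libraries. Members have many processed pseudogenes, and how reads shared with them were counted is not given in the sources used here; 20 cytosolic and 13 mitochondrial members had a count that was not whole in at least 1 library.

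**Figure D2:**
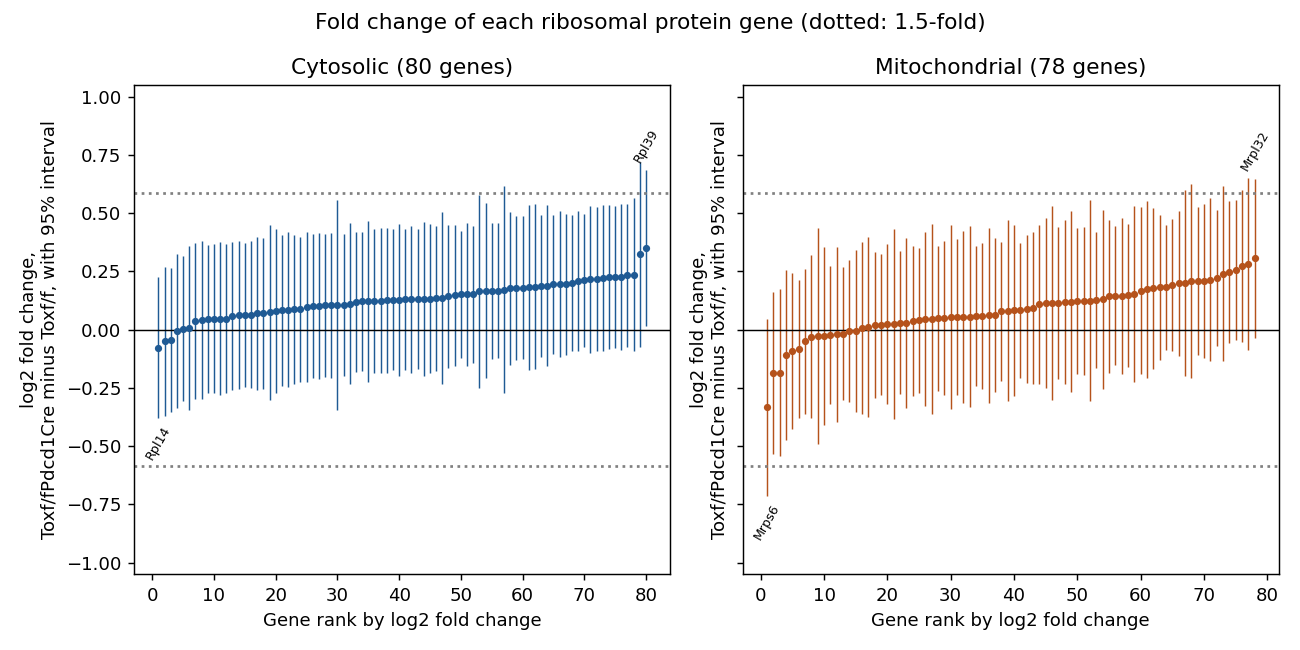
Log2 fold change (Toxf/fPdcd1Cre minus Toxf/f) of each tested ribosomal protein gene with its 95% interval, ranked within the cytosolic (left) and mitochondrial (right) set, with dotted lines at 1.5-fold. Points lie mostly just above 0 and every interval but that of Rpl39 includes 0.

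Genes whose genotypes had no overlap in CPM were counted as a further description. Values were higher in all Toxf/fPdcd1Cre libraries for 25 of 80 cytosolic genes (31.2%) and 12 of 78 mitochondrial genes (15.4%), against 12.6% of all tested genes. They were lower for 0 cytosolic and 2 mitochondrial genes (2.56%), against 13.5% of all tested genes. Among the 9347 tested genes at 10 CPM or more, where all tested members lie, the shares were 15.5% higher and 9.12% lower, so the mitochondrial share of higher genes was at that background. With members that move together within a library, such counts are not independent of one another. Of the 25 cytosolic genes 18 belong to the large and 7 to the small subunit, of 48 and 32 tested.

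The large subunit was described first. Its 48 tested cytosolic genes had a median log2 fold change of 0.13, with 47 above 0. Rpl39, a small protein that lines the peptide exit tunnel, was at 103 and 98.1 CPM in Toxf/f and at 141, 139 and 104 CPM in Toxf/fPdcd1Cre libraries. The values do not overlap, but Toxf/fPdcd1Cre replicate 3 lay within 2 CPM of the nearest Toxf/f library. Its log2 fold change of 0.35 ± 0.15 (SE) was the largest of the set, with an adjusted p of 0.457 (edgeR). The gene lies on chromosome X from 37082520 to 37085402 on the minus strand (GENCODE M21, GRCm38; the build used for counting is not known here).

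Rpl22 and its copy Rpl22l1 came next, because loss of Rpl22 blocks alpha-beta T cell development in mice and Rpl22 protein is known to hold down Rpl22l1. Rpl22 was at 335 and 300 CPM in Toxf/f and at 372, 357 and 341 CPM in Toxf/fPdcd1Cre, a log2 fold change of 0.17 ± 0.13 (SE). Rpl22l1 was at 18.4 and 16.7 CPM in Toxf/f and at 25, 22.8 and 18.1 CPM in Toxf/fPdcd1Cre, a log2 fold change of 0.32 ± 0.18 (SE). Both leaned upward, Rpl22 without overlap and Rpl22l1 with it, and neither passed (adjusted p = 0.782 and 0.615, edgeR). Per length, Rpl22l1 stood at 5.16% and 5.30% of Rpl22 in Toxf/f and at 6.41%, 6.07% and 4.97% in Toxf/fPdcd1Cre libraries, so the share overlapped between genotypes. Rpl22 lies on chromosome 4 from 152325742 to 152334071 and Rpl22l1 on chromosome 3 from 28805436 to 28807424, both on the plus strand.

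Abundant large subunit genes had log2 fold changes of unequal size. Rpl13a was at 1674 and 1556 CPM in Toxf/f and at 1874, 2023 and 1773 CPM in Toxf/fPdcd1Cre (log2 fold change 0.23 ± 0.14). Rpl23a was at 1437 and 1277 CPM against 1604, 1618 and 1565 CPM (0.23 ± 0.14). In both genes the genotypes did not overlap, and the gap between them was smaller than the difference between the Toxf/f libraries. Rpl7 (0.19 ± 0.14) was similar and also did not overlap, while Rpl37 (0.24 ± 0.15) and Rpl3 (0.06 ± 0.14) did. The stalk protein gene Rplp0, the highest member by CPM with a mean of 2477, stood at 0.13 ± 0.15 and Rpl6, with a mean of 1610 CPM, at 0.07 ± 0.15, both with overlap and named after their values were seen. Rpl14 was the 1 large subunit gene below 0, at 523 and 451 CPM in Toxf/f and 472, 485 and 429 CPM in Toxf/fPdcd1Cre (-0.08 ± 0.14). Adjusted p was 0.650 to 0.949 for these 8 genes (edgeR).

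The 32 tested small subunit genes had a median of 0.12, with 29 above 0. Rps3, which sits at the messenger RNA entry of the ribosome and also has a role in DNA repair, was at 1001 and 981 CPM in Toxf/f and at 1164, 1232 and 1080 CPM in Toxf/fPdcd1Cre (log2 fold change 0.23 ± 0.14). Rps3a1 was at 2076 and 1951 CPM against 2284, 2455 and 2287 CPM (0.22 ± 0.14). Rps14 stood at 0.13 ± 0.14. These 3 genes did not overlap between genotypes, and their adjusted p was 0.666 to 0.857 (edgeR). Rps9 (-0.05 ± 0.15), Rps2 (-0.04 ± 0.14) and Rps24 (-0.01 ± 0.15), whose human counterpart is mutated in some cases of Diamond-Blackfan anaemia, were the small subunit genes below 0, with values that overlapped.

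**Figure D3:**
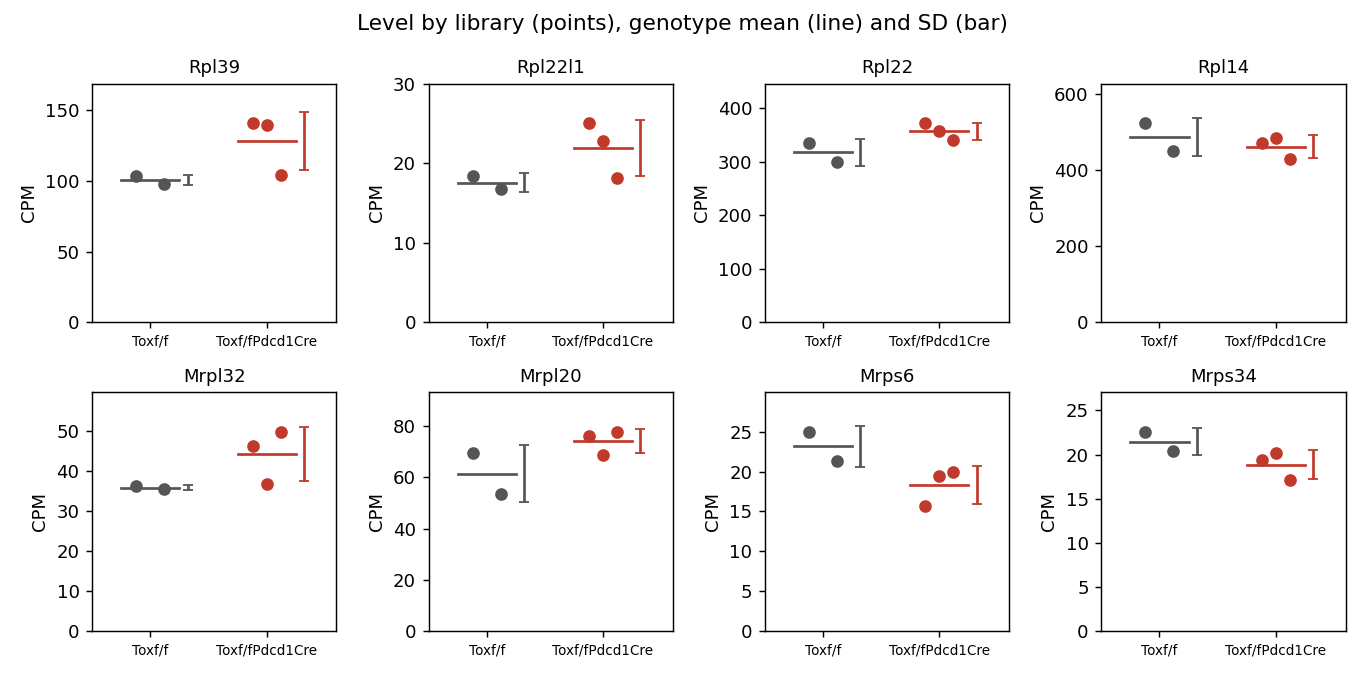
CPM in each library (points), genotype mean (line) and SD (bar) of 8 members: Rpl39, Rpl22l1, Rpl22 and Rpl14 above, Mrpl32, Mrpl20, Mrps6 and Mrps34 below. Rpl39, Rpl22 and Mrpl32 lie higher and Mrps6 and Mrps34 lower in all Toxf/fPdcd1Cre libraries with small gaps between the genotypes.

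Copies that are mostly used in other tissues were near absent. Rpl10l, a retrocopy expressed in testis, had 0 counts in every library. Rpl3l, a copy known from heart and skeletal muscle, had 7 and 1 counts in Toxf/f and 9, 7 and 2 in Toxf/fPdcd1Cre, with overlap. Rpl39l, known from testis, had 2 and 1 counts in Toxf/f and 8, 18 and 6 in Toxf/fPdcd1Cre libraries. Scaled to library size this is a ratio of 7.67, with a 95% exact binomial interval of 2.40 to 39.1 that covers counting error only. The ratio was 5.15 without Toxf/fPdcd1Cre replicate 2 and 11.9 when the shared Toxf/f library was left out. These 3 genes did not pass the filter on low counts. In a fit with no filter Rpl39l had an adjusted p of 0.205 (edgeR). At 0.0663% to 0.626% of the FPKM of Rpl39 in the 5 libraries, it was a trace beside its main copy.

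Other second copies were at measurable levels. Rps27l, a copy of Rps27 induced by p53, was at 89.4 and 66.9 CPM in Toxf/f and at 81.4, 83.8 and 85.8 CPM in Toxf/fPdcd1Cre (log2 fold change 0.10 ± 0.15), and Rps27 stood at 0.11 ± 0.16. Rpl7l1, known from ribosome assembly, was at 143 and 135 CPM against 147, 158 and 160 CPM (0.15 ± 0.12). The 4 X-linked members, all cytosolic, were Rpl10 (0.17 ± 0.20), Rpl36a (0.21 ± 0.13), Rpl39 and Rps4x (0.13 ± 0.15). Rpl10 was among the members that varied most between libraries, at 400 and 319 CPM in Toxf/f and 424, 496 and 294 CPM in Toxf/fPdcd1Cre. None of these genes passed (adjusted p = 0.457 to 0.915, edgeR).

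Among mitochondrial genes the largest values on either side belonged to different proteins of the same particle. Mrpl32, a large subunit protein that is cut by the m-AAA protease before it is assembled, was at 36.1 and 35.3 CPM in Toxf/f and at 46.1, 36.8 and 49.6 CPM in Toxf/fPdcd1Cre (log2 fold change 0.31 ± 0.16). The genotypes did not overlap, but Toxf/fPdcd1Cre replicate 2 lay beside the Toxf/f libraries. Mrps6 of the small subunit was at 25 and 21.4 CPM in Toxf/f and at 15.6, 19.5 and 20.0 CPM in Toxf/fPdcd1Cre (-0.33 ± 0.17). It did not overlap in the other direction, with Toxf/fPdcd1Cre replicate 1 lowest. Neither passed (adjusted p = 0.546 and 0.556, edgeR). Mrpl32 lies on chromosome 13 from 14608184 to 14613165 on the minus strand and Mrps6 on chromosome 16 from 92058270 to 92112227 on the plus strand.

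Further mitochondrial large subunit genes had values above 0, among them Mrpl47 (0.28 ± 0.17), Mrpl20 (0.27 ± 0.15), Mrpl48 (0.26 ± 0.14) and Mrpl2 (0.24 ± 0.17). Mrpl20 was at 69.5 and 53.6 CPM in Toxf/f and at 76.4, 68.8 and 77.7 CPM in Toxf/fPdcd1Cre, with overlap, while Mrpl47 and Mrpl48 did not overlap. Mrps33 of the small subunit stood at 0.25 ± 0.14 without overlap. On the lower side, Mrps34 was at 22.5 and 20.4 CPM in Toxf/f and at 19.3, 20.2 and 17.1 CPM in Toxf/fPdcd1Cre, a narrow gap (-0.19 ± 0.16). Mrpl38 (-0.19 ± 0.16), Mrps21 (-0.11 ± 0.17), Mrps25 (-0.09 ± 0.15) and Mrps7 (-0.08 ± 0.14) overlapped. Adjusted p was 0.577 to 0.924 for these genes (edgeR).

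Mitochondrial genes assigned to the large and small subunit had the same median log2 fold change, 0.08, with 43 of 51 and 20 of 27 above 0. Mrps18a and Mrps30, whose proteins sit in the large subunit despite their names, were counted there. All other genes were assigned by name alone, with no check that each protein is part of the ribosome. Vertebrates have 3 proteins of the S18 family, Mrps18a, Mrps18b and Mrps18c, each at its own place in the mitochondrial ribosome. Their log2 fold changes were 0.02 ± 0.16, 0.05 ± 0.19 and 0.11 ± 0.17, with library values that overlapped (adjusted p = 0.985, 0.973 and 0.913, edgeR). Of the most abundant members, Mrpl30 stood at 0.08 ± 0.14, Mrpl24 at 0.02 ± 0.14, Mrpl42 at -0.03 ± 0.16 and Mrpl18 at 0.12 ± 0.14.

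Some libraries of 1 genotype differed by more than the medians between genotypes, and the members moved together. Toxf/f replicate 3 was below the other Toxf/f library in 79 of 80 cytosolic genes, by a median of -0.16 on the log2 scale, and in 76 of 78 mitochondrial genes, by a median of -0.24. It was the lowest of all 5 libraries for 66 cytosolic and 55 mitochondrial genes. Among Toxf/fPdcd1Cre libraries, replicate 3 was below replicate 2 in 75 of 80 cytosolic genes (median -0.21) but in 45 of 78 mitochondrial genes (median -0.02). Replicate 2 was the highest library for 59 cytosolic and 18 mitochondrial genes. So the sets shared the low level of Toxf/f replicate 3, while the contrast between Toxf/fPdcd1Cre replicates 2 and 3 was seen mainly in the cytosolic set; the difference between the sets in this contrast was not tested.

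Most of the cytosolic variation was common to the set. Deviations of single genes from their mean over the 5 libraries had an SD of 0.135 on the log2 scale, which became 0.0802 once each library's set median was taken off. For mitochondrial genes the SD went from 0.142 to 0.110. Counting error alone gives about 0.0139 for the median cytosolic and 0.0624 for the median mitochondrial gene. Library medians of the deviations were 0.00 and -0.15 in Toxf/f and 0.05, 0.16 and -0.06 in Toxf/fPdcd1Cre for the cytosolic set, and 0.08, -0.17, 0.08, 0.04 and 0.02 in the same order for the mitochondrial set.

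**Figure D4:**
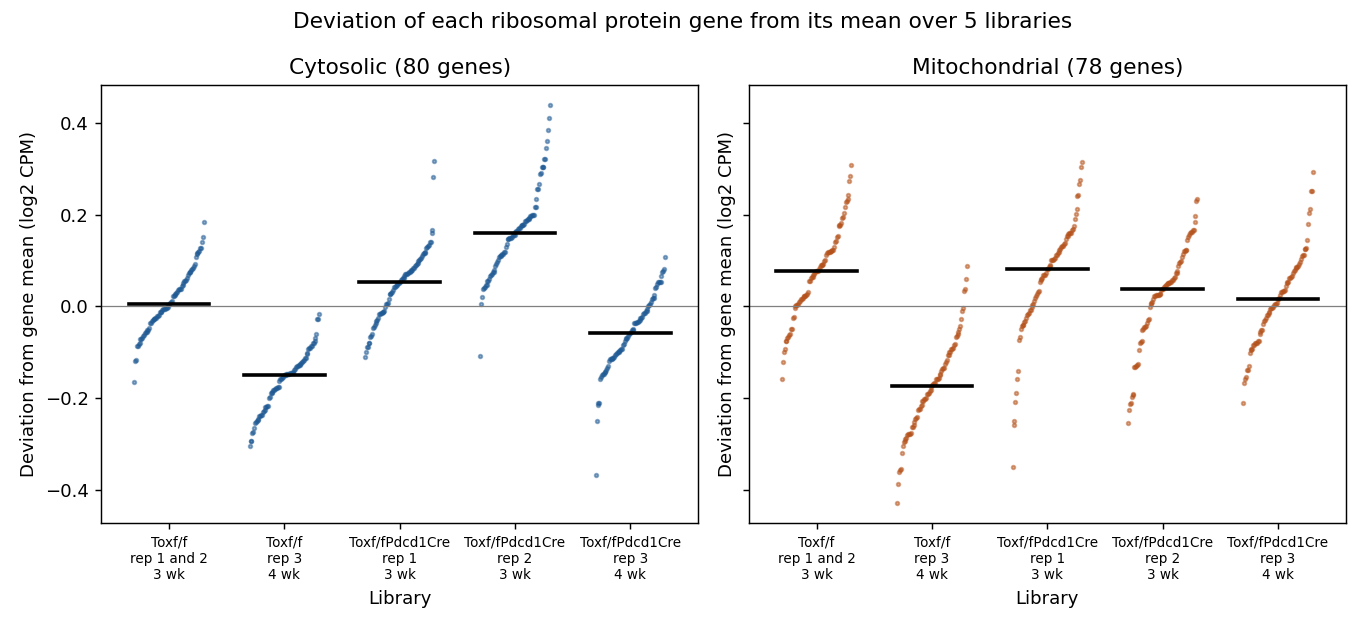
Deviation of each tested gene from its own mean over the 5 libraries (log2 CPM; points sorted within a library) with the set's median as a black bar, for cytosolic (left) and mitochondrial (right) genes. Toxf/f replicate 3 is low in both sets, at -0.15 and -0.17, and Toxf/fPdcd1Cre replicate 2 is high in the cytosolic set, at 0.16.

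Age runs along with these differences, since replicates 3 came from 4-week-old mice. Within 3 weeks of age (1 Toxf/f against 2 Toxf/fPdcd1Cre libraries) the median difference between genotypes was 0.11 for cytosolic and -0.03 for mitochondrial genes. Within 4 weeks (1 library each) it was 0.11 and 0.18. Against the same 3-week Toxf/f library the cytosolic median was 0.05 for Toxf/fPdcd1Cre replicate 1 (49 of 80 genes higher) and 0.14 for replicate 2 (73 of 80). Whether the genotype difference itself differs with age was not tested. The 4-week libraries were lower than the 3-week libraries in the cytosolic set of both genotypes, with medians of -0.16 in each, while mitochondrial genes differed by -0.24 in Toxf/f and -0.04 in Toxf/fPdcd1Cre. With 1 library per genotype at 4 weeks these age values have no replicate check, and age cannot be told apart from the libraries that carry it.

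Transcript length was set beside the library pattern, a property examined after the members' values were seen. Among the 10 cytosolic genes that varied most between libraries were Rps28 and Rps29, with lengths of 384 and 390 bases as implied by counts and FPKM, against a median of 709.5 bases over the set. The same 10 genes included Rpl10, at 700 bases, and Rps20, the longest at 3706 bases. Rps28 was at 146 and 105 CPM in Toxf/f and at 122, 175 and 108 CPM in Toxf/fPdcd1Cre, and Rps29 at 266 and 199 CPM against 227, 327 and 227 CPM. Both were highest in Toxf/fPdcd1Cre replicate 2 and lowest in Toxf/f replicate 3. Across the 80 cytosolic genes the SD over libraries had a Spearman's rho with length of -0.487, given as a description, since these genes share the same 5 libraries. For mitochondrial genes rho was -0.125 over 78 genes.

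Shorter and longer cytosolic members ranked the libraries alike, but the size of the deviations varied with length. Those shorter than 710 bases had median deviations of 0.01 and -0.19 in Toxf/f and 0.04, 0.19 and -0.07 in Toxf/fPdcd1Cre, and the longer ones 0.00, -0.15, 0.06, 0.13 and -0.04 in the same order. Spearman's rho of the deviation with length over the 80 cytosolic genes was -0.123 and 0.299 in Toxf/f. It was 0.217, -0.427 and 0.165 in Toxf/fPdcd1Cre replicates 1, 2 and 3. Longer mitochondrial members were also low in Toxf/f replicate 3, at -0.17. Short transcripts that encode no ribosomal protein were low there too. The 152 other genes of at least 10 CPM that were shorter than 710 bases had median deviations of 0.08 and -0.18 in Toxf/f and 0.03, 0.10 and 0.00 in Toxf/fPdcd1Cre libraries. The 9037 longer ones had 0.00, -0.04, -0.02, 0.04 and 0.04. Their median log2 fold changes between genotypes were 0.09 and 0.05, and that of cytosolic members shorter and longer than this length 0.13 and 0.12. The part of length, age or cell content in the members' values was not tested. Summed markers of cycling cells were lowest in Toxf/f replicate 3, at 3951 CPM, against 4373 CPM in the other Toxf/f library. They were at 5205, 4402 and 6152 CPM in Toxf/fPdcd1Cre replicates 1, 2 and 3, the reverse of the order of the cytosolic medians there. All 10 markers had fold changes above 0, and 0 were called.

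The size of the lean depended on which library was left out, and also on the filter and the measure used, as given under processing below. Without Toxf/f replicate 3 the cytosolic median was 0.05, with 56 of 81 genes above 0, and the mitochondrial median was -0.04, with 29 of 78 above 0. With the shared Toxf/f library left out the medians were 0.21 and 0.23. Without Toxf/fPdcd1Cre replicate 1 they were 0.09 and 0.04, without replicate 2 they were 0.07 and 0.08, and without replicate 3 they were 0.18 and 0.11. No member was called in any of these fits.

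**Figure D5:**
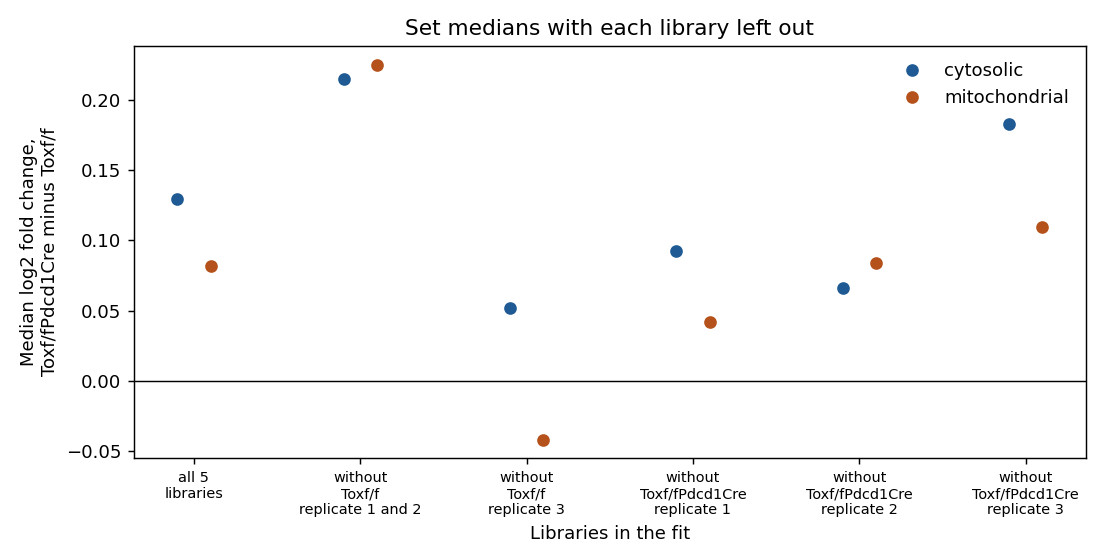
Median log2 fold change (Toxf/fPdcd1Cre minus Toxf/f) of the cytosolic and mitochondrial sets with all 5 libraries and with each library left out. The cytosolic median stays between 0.05 and 0.21, and the mitochondrial median runs from -0.04 without Toxf/f replicate 3 to 0.23 without the other Toxf/f library.

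Related genes gave counts of 0 as well. Ribosomal proteins whose names fall outside the rule (among them Fau, Rack1, Rpl36al and Rps27rt of the cytosol and Dap3, Ptcd3, Chchd1, Aurkaip1 and Gadd45gip1 of mitochondria) had 0 of 10 called, 9 above 0 and a median of 0.11. Chchd1 (0.20 ± 0.14) and Aurkaip1 (0.16 ± 0.14) had the smallest p. Of 52 ribosome biogenesis genes, which process ribosomal RNA and assemble subunits, 0 were called, 47 were above 0 and the median was 0.13. At an unadjusted p of 0.05 there were 3, a smaller share than the 1460 of 14121 over all tested genes. Pes1, a factor of large subunit maturation, was at 97.9 and 94.2 CPM in Toxf/f and 121, 119 and 120 CPM in Toxf/fPdcd1Cre, with no overlap and a log2 fold change of 0.32 ± 0.12 and an adjusted p of 0.352 (edgeR). Tsr1, of small subunit maturation, stood at 0.36 ± 0.15 (adjusted p = 0.419).

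Translation factors and other genes with TOP messages had 0 of 18 called, 13 above 0 and a median of 0.09, with Eif3e at 0.28 ± 0.15 and the elongation factor Eef2 at 0.22 ± 0.15. Genes of mitochondrial translation and ribosome assembly had 0 of 46 called, 37 above 0 and a median of 0.09. Of these, Tfb1m, which methylates mitochondrial ribosomal RNA, stood at 0.44 ± 0.21 and the alanyl-tRNA synthetase Aars2 at 0.31 ± 0.13. Regulators of ribosomal protein expression had 0 of 16 called and a median of 0.03. Rptor, the defining subunit of mTOR complex 1, was at 81.6 and 81.6 CPM in Toxf/f and at 95.4, 100.1 and 95.1 CPM in Toxf/fPdcd1Cre (0.25 ± 0.12, adjusted p = 0.533, edgeR), and Larp1, which binds TOP messages, stood at 0.27 ± 0.16.

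Targets of p53, which respond when ribosome assembly is disturbed, leaned the other way. Their list also holds the p53 gene itself, Trp53 (log2 fold change -0.02 ± 0.12). Of 11 tested genes 0 were called, 2 were above 0 and the median was -0.14. Pmaip1, a death-promoting BCL2 family gene, was at 10.1 and 11.1 CPM in Toxf/f and at 5.94, 3.26 and 5.71 CPM in Toxf/fPdcd1Cre (-1.09 ± 0.28, adjusted p = 0.0999, edgeR). Cdkn1a, the cell cycle inhibitor p21, was at 21.5 and 23.9 CPM against 20.2, 13.2 and 12.2 CPM (-0.58 ± 0.22, adjusted p = 0.344). Neither passed here. In alternatives, Pmaip1 had an adjusted p of 0.00753 with the replicate number as a block, 0.0338 with no filter on low counts and 0.0496 with identical files kept apart (edgeR), and 0.0434 with DESeq2. Cdkn1a had an adjusted p of 0.0116 with the block and 0.0269 without Toxf/fPdcd1Cre replicate 1 (edgeR). In the block the shared Toxf/f library took number 2, so Toxf/fPdcd1Cre replicate 1 had no partner there. The block therefore took no information on genotype from that replicate, and these Cdkn1a values are not independent of each other. Pmaip1 did not pass in the other 13 of its 17 alternatives, and Cdkn1a did not pass in the other 16 of 18.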

How the data were processed

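Messenger RNA libraries of sorted thymocytes were made with the NEBNext Ultra kit, per the labels' protocols. The authors deposited for each sample an estimated count and an FPKM value per gene, per the file headers. The submitters' processing notes name fastp 0.18.0, HISAT2 and StringTie 1.3.1; the sources used here do not give their roles, the build, the annotation or the strand setting. The headers of Toxf/f replicates 1 and 2 carry the same library name and identical values. Estimated counts were rounded, filtered with filterByExpr (14121 genes left), scaled by TMM and tested with edgeR 4.0.16 in R 4.3.3 over all genes, with Benjamini-Hochberg adjustment at 0.05. Intervals of fold changes are 95% from the same model. Log2 levels use CPM plus 0.5. No test over a set was made.

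Members and lists were chosen with earlier results of these data known. Named members are the 6 largest values on each side per set at 10 CPM or more, the 5 highest by FPKM, paralogues, X-linked genes and, per related list, the 2 with the smallest p; Rps28, Rps29, Rps20, Rplp0, Rpl6 and members named only for their promoters were chosen after their values were seen. Over 9347 genes same-numbered libraries did not deviate together. The shared Toxf/f library had r of -0.033 and -0.002 with Toxf/fPdcd1Cre replicates 1 and 2, and replicates 3 had -0.047. With 2 Toxf/f libraries the deviations of 1 mirror those of the other, so each r recurs with the opposite sign. In the cytosolic set, 4-week libraries were lower than 3-week libraries in both genotypes (median -0.16 in each). Alternatives numbered 18, with DESeq2 1.42.0 and limma 3.58.1 among them. Tests were checked on simulated counts. Gas5 was on a list but matched no listed symbol. No protein sequences were used here. Coordinates come from GENCODE M21 and RefSeq, both on GRCm38. Figures were drawn with matplotlib 3.10.9. Some genes covered by the naming rule are not reported here by name.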

Additional observations from a re-analysis of the deposited data

How the results depend on the processing

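No ribosomal protein gene was called in any of the 18 alternatives, and the lowest adjusted p of a named member was 0.193. The cytosolic median stayed above 0 in all of them, from 0.05 to 0.21 with each library left out in turn, and the mitochondrial median ran from -0.0419 to 0.225 in these fits. Leaving out Toxf/f replicate 3 brought the mitochondrial median below 0. With at least 10 CPM in 3 libraries, genes above 0 fell from 63 to 43 of 78 mitochondrial and from 76 to 68 of 80 cytosolic. They numbered 45 and 64 with limma on log2(FPKM + 1), 56 and 74 with upper-quartile factors, and 65 and 76 with limma-voom. Where a genotype was left with 1 library, that library was assumed to vary like the others. Among all genes 232 were called, against 417 with no filter on low counts, 67 with at least 10 CPM in 3 libraries, 125 with age as a covariate, 380 with identical files kept as separate samples, 359 with DESeq2, 113 with limma on log2(FPKM + 1) and 101 on log2(FPKM + 0.1). It was 31 to 606 with each library left out in turn. With the replicate number as a block the count was 868. In that fit the shared Toxf/f library took number 2, so Toxf/fPdcd1Cre replicate 1 had no partner and did not inform the genotype difference. The count was 435 when the shared library took number 1, an alternative chosen after seeing the data, in which Toxf/fPdcd1Cre replicate 2 had no partner. Over 9347 genes same-numbered libraries did not deviate together, and no member was called with either block. Of 50 named members, 24 changed sign at least once, none with a call. With no filter on low counts, the sign was opposite for Rps24 at 0.00355. With the replicate block, the sign was opposite for Mrps25 at 0.0129, Mrps18b at -0.0849 and Mrpl9 at 0.00916. With upper-quartile factors, the sign was opposite for Mrpl24 at -0.0152 and Mrps18a at -0.00762. With the stricter filter, the sign was opposite for Mrpl24 at -0.0443, Mrps18a at -0.0353 and Mrps18b at -0.00684. With the replicate block and the shared library numbered 1, the sign was opposite for Mrpl24 at -0.0781, Mrpl42 at 0.083, Rpl10 at -0.0167, Rps27 at -0.0337, Rps28 at -0.11 and Rps29 at -0.0174. With identical files kept apart, the sign was opposite for Mrpl24 at -0.00898, Mrps18a at -0.00594 and Mrps18b at -0.0126. With limma on log2(FPKM + 1), the sign was opposite for Mrpl24 at -0.0358 and Mrps18a at -0.0268. With limma on log2(FPKM + 0.1), the sign was opposite for Mrpl24 at -0.0362 and Mrps18a at -0.0278. The leave-one-out ranges that crossed 0 were Rpl14 -0.18 to 0.0372, Rps9 -0.14 to 0.0164, Rps2 -0.136 to 0.0164, Rps24 -0.0874 to 0.0892 and Mrps21 -0.272 to 0.079, Mrps25 -0.235 to 0.0678. Next came Mrpl30 -0.0307 to 0.200, Mrpl24 -0.0777 to 0.11, Mrpl42 -0.146 to 0.0866, Mrpl18 -0.066 to 0.339, Rpl3 -0.00959 to 0.137 and Rpl10 -0.00267 to 0.356. Others were Rps27 -0.0355 to 0.179, Rps27l -0.0956 to 0.326, Mrps18a -0.0669 to 0.123, Mrps18b -0.127 to 0.245, Mrps18c -0.0702 to 0.325 and Rps28 -0.127 to 0.368. The last were Rps29 -0.033 to 0.394, Rps6 -0.00255 to 0.186, Rps26 -0.011 to 0.185, Mrpl58 -0.104 to 0.47, Rpl6 -0.0774 to 0.236 and Mrpl9 -0.0867 to 0.0197. The lowest count of a tested member was 180. Counting error at the median gene was 0.0139 for cytosolic and 0.0624 for mitochondrial members on the log2 scale, so depth added mainly to the spread of low mitochondrial members. The 5 libraries limit the precision in both sets.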
